A study of Mus musculus with 4 samples.

Results

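DNA replication licensing and fork genes were described in mouse T helper 17 (Th17) cells, an IL-17-secreting type of CD4 T cell. The set is a named list of 52 genes, matched by gene symbol among the 50600 genes of the deposited count tables, and all 52 were found. Expression values played no part in the matching. RNA sequencing had been done on 4 libraries of primary Th17 cells from mouse strain C57BL/6NJ, which carry biological replicate numbers 1 to 4 and form a single group with no control or second condition. All 4 share 1 donor label, sex and age are not given, and the linked protocols cover differentiation of CD4 T cells in culture and a library made from poly(A) RNA, although the assay label reads total RNA. A time of 48 hours stands in the name that the counting command gave its output, and the labels do not repeat it. No label says whether the libraries came from separate animals or cultures, so the spread and the p-values below describe these libraries only and may be technical in part.

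Before a cell copies its DNA, the origin recognition complex (ORC) binds replication origins, and CDC6 and CDT1 help it to load the ring-shaped MCM2-7 helicase, a step called licensing. In S phase, the kinases CDC7-DBF4 and CDK switch the loaded helicase on by adding CDC45 and the GINS complex, and polymerases alpha, delta and epsilon copy the opened strands with the sliding clamp PCNA. Resting T cells hold little of this machinery, and activated T cells, which divide fast, make it again.

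The libraries held between 28555677 counts (replicate 1) and 58104663 counts (replicate 3). The cytokine genes that define Th17 cells were high: Il17f lay at 11569 ± 117 TPM (SD, n = 4) and Il17a at 4436 ± 179 TPM. TPM is the count divided by exon length and scaled to the same sum in each library, and it is the scale of every level below unless another is named. Of 14 marker genes of other cell types, 0 reached 1 TPM in every library, 6 had no count in any library (among them Lyz2, Ncr1 and S100a8), and their summed level was 3.08, 2.61, 2.40 and 1.98 TPM in replicates 1 to 4. The libraries stood apart in sex-linked genes. Xist, which is transcribed from the inactive X chromosome of females, lay at 132, 131, 0.329 and 0.496 TPM in replicates 1 to 4, while the Y-linked Eif2s3y lay at 0.282, 0.239, 65.5 and 58.4. Replicates 1 and 2 thus read as female cells and replicates 3 and 4 as male cells. Despite the shared donor label, the libraries cannot all come from 1 animal, and sex splits them. Only Pola1 of the 52 genes is on chromosome X, and the other 51 are autosomal.

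All 52 replication genes were detected, that is at 1 TPM or more in each library. The same was true of 47.0% of 21764 protein-coding genes. All 52 also reached 5 TPM in each library, as 40.5% of protein-coding genes did. Their mean levels ran from 25.8 TPM (Mcm8) to 553 TPM (Mcm3), and their median was 92.2 TPM against 31.3 TPM for the 10223 detected protein-coding genes. Of the 52, 48 lay above that median, 9 were in the top 10% of detected protein-coding genes, 25 reached 100 TPM and 13 stayed under 50 TPM. Levels were uneven: Mcm3, Pcna, Mcm5, Mcm6, Mcm4 and Tipin together made up 37.5% of the summed level. Ordered by mean level, 27 of the 51 neighbouring pairs kept one order in all 4 libraries, and 23 had ranges that did not overlap. Mcm3 and Pcna, at the top, did not differ beyond their spread and kept this order in only 2 of 4 libraries. In bulk RNA, a larger share of cycling cells and more RNA per cycling cell cannot be told apart.

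**Figure D1:**
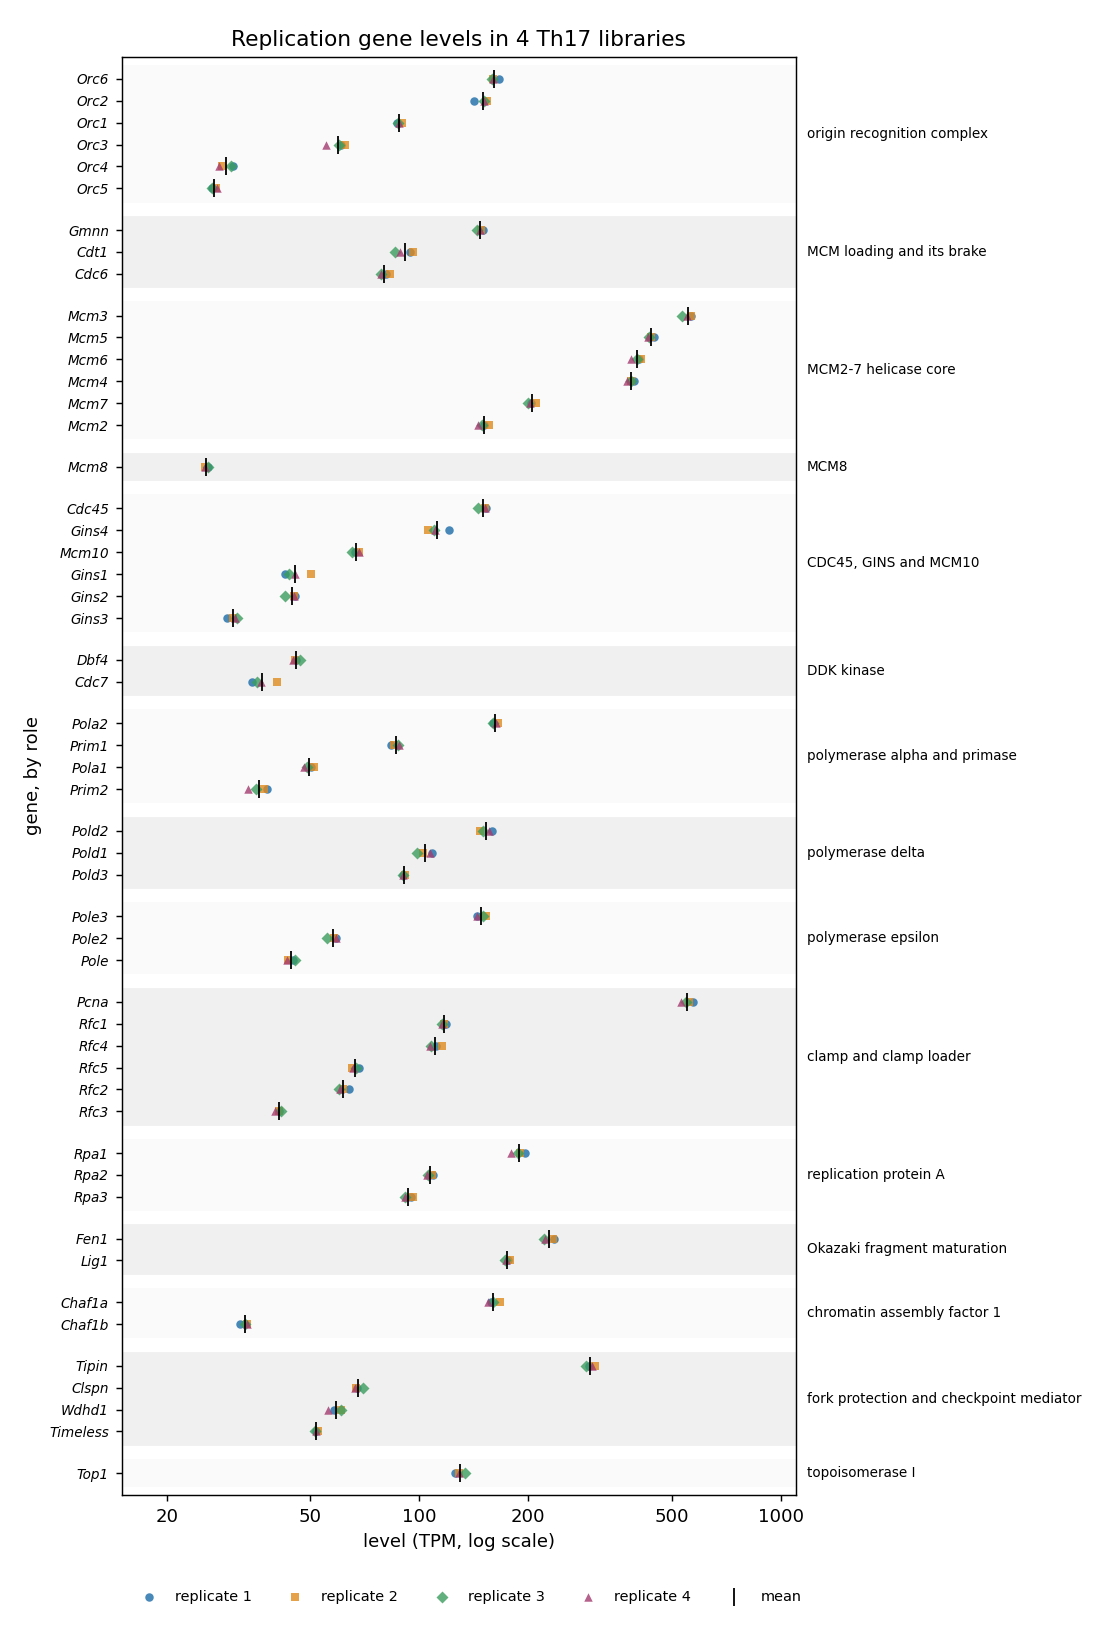
Level of each of the 52 replication genes in TPM (log axis), grouped by role, with 1 symbol per library and a vertical bar at the mean. The symbols of a gene lie close together compared with the distance between genes, from Mcm8 near 25.8 TPM to Mcm3 near 553 TPM.

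E2F transcription factors switch on many replication genes as cells enter S phase. The promoters were therefore searched for the E2F motif in 4 spellings, TTTGGCGC, TTTGCCGC, TTTCGCGC and TTTCCCGC, on both strands, from 250 bases before to 50 bases after the RefSeq start site. Of the 52 genes, 43 had a promoter in the RefSeq table of build GRCm38.p6. Prim2, Pole, Gins1, Mcm4, Gmnn, Gins4, Rfc2, Tipin and Gins2 had no entry. The motif was in the promoters of 17 of 43 genes, 39.5% (exact 95% binomial interval 24.98 to 55.6%). It was in 2.60% of all 27025 genes of the table and in 5.11% of the 8217 protein-coding genes detected here. The 17 genes were Orc1, Orc3, Cdc6, Cdt1, Mcm3, Mcm5, Mcm6, Mcm7, Mcm8, Gins3, Pola1, Pold1, Pold3, Pole2, Rfc3, Lig1 and Clspn. They held 23 matches, 12 of them upstream of the start. The spellings can overlap on opposite strands, as in the first stretches of Mcm5 and Mcm6, where 1 run is counted as 2 matches.

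Upstream stretches of 4 of these genes are shown with the motif in capitals. They were chosen after the matches were seen, because none overlaps an exon in the deposited gene models, and they span the licensing factor CDC6, helicase subunits of MCM2-7 and the catalytic subunit of polymerase alpha. All are from RefSeq, build GRCm38.p6, 70 bases long, written 5′ to 3′ on the gene's strand.
Mcm5, chr8:75109325-75109394, plus strand, 153 bases before the start: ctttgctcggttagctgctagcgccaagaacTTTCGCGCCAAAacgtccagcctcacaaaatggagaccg
Mcm6, chr1:128359777-128359846, minus strand, 110 bases before the start: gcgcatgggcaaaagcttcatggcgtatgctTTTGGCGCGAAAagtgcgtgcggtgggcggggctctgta
Mcm6, chr1:128359714-128359783, minus strand, 47 bases before the start: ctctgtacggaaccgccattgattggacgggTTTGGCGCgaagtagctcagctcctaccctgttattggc
Cdc6, chr11:98907982-98908051, plus strand, 138 bases before the start: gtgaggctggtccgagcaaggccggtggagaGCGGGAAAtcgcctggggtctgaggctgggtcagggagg
Pola1, chrX:93632255-93632324, minus strand, 138 bases before the start: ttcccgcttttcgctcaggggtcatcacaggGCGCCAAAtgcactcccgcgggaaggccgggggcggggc
Mcm6 thus carried the motif at separate places of its promoter. The Cdc6 stretch lies inside the span of the deposited Cdc6 gene, which starts at position 98907801, in none of its exons. A match of letters is a description and does not show binding. Genes with the motif had a median of 87.9 TPM and a range from 25.8 to 553 TPM, and genes with a promoter entry and no motif had a median of 114 TPM and a range from 27.1 to 552 TPM. The ranges overlapped almost fully, and the difference was not tested.

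Origin recognition came first in the order of events. The 6 ORC genes summed to 515 ± 5.35 TPM. Orc6, the smallest subunit, was the highest at 166, 160.4, 159 and 159.6 TPM in replicates 1 to 4 (161 ± 3.21), and Orc5 was the lowest at 26.7, 27.4, 26.7 and 27.5 TPM (27.1 ± 0.437). Their ranges were far apart, a ratio of 5.96. The order depended on the length: with principal transcript lengths Orc5 read 54.5 TPM and Orc4, at 36.8 TPM, was the lowest. Orc3, at 108 TPM, then lay above Orc1, at 69.7 TPM, while Orc6 stayed the highest. Orc2 lay at 150 ± 5.28 TPM, next to Orc6, and Orc1, the ATPase subunit that CDC6 resembles, at 87.9 ± 1.30 TPM, with Orc3 at 59.5 ± 3.01 and Orc4 at 29.2 ± 1.30 TPM. Orc6 exceeded Orc1 by 0.88 ± 0.04 on the log2 scale and Orc2 exceeded Orc1 by 0.77 ± 0.04, with TPM plus 0.1 in both terms. Each direction held in 4 of 4 libraries, and with principal lengths the mean ratios were 1.61 and 0.67.

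Such a ratio was taken in each library for 25 pairs of genes that share a complex or a step. All 25 kept one direction in 4 of 4 libraries. The exact two-sided sign-flip test gave p = 0.125 for every pair, adjusted p = 0.125, the smallest value that 4 libraries allow, so no pair could pass 0.05. The ratios below are mean log2 ratios ± SD over the 4 libraries.

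Loading of the helicase depends on CDC6 and CDT1, and geminin (Gmnn) restrains it by binding CDT1. Gmnn was the highest of the 3 at 150.4, 148, 145 and 147 TPM (148 ± 2.34). Cdc6 was the lowest at 80.7, 83.1, 78.3 and 78.2 TPM (80.1 ± 2.32), and Cdt1 lay at 94.0, 96.2, 85.4 and 88.7 TPM (91.1 ± 4.90). Geminin transcripts were thus above those of its target in each library, and the ranges did not overlap. The ratio of Gmnn to Cdt1 was 0.70 ± 0.06. Cdc6 to Cdt1 gave -0.18 ± 0.04, with ranges that lay just apart. Cdc6 has 5229 bases of merged exon against 2559 bases in its principal transcript, and with the latter length the ratio was 0.33, in the opposite direction.

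The MCM2-7 helicase was the most abundant module. Its 6 genes summed to 2131 ± 42.1 TPM, 0.213% of all TPM. Mcm3 (chr1:20802968-20820312, minus strand) stood highest at 566, 564, 532 and 551 TPM, rank 253 among protein-coding genes. Mcm5 followed at 437 ± 7.79, Mcm6 at 400.5 ± 11.4 and Mcm4 at 385 ± 7.86 TPM. Mcm7 at 205 ± 4.57 TPM and Mcm2 lay below these 4. Mcm2 read 151, 156, 149 and 146 TPM (151 ± 4.30), and its range overlapped with none of the other 5 subunits, although the subunits sit side by side in 1 ring. Mcm3 exceeded Mcm2 by 1.88 ± 0.04 and Mcm5 exceeded Mcm2 by 1.54 ± 0.04, while Mcm7 against Mcm4 gave -0.91 ± 0.04. The gap at Mcm2 moved with the length used: its merged exons hold 6956 bases and its principal transcript 3371 bases. With principal lengths Mcm2 reached 213 ± 6.02 TPM and Mcm7, at 210 ± 4.60 TPM, had the lowest mean, a difference within their spread. The ratio of highest to lowest fell from 3.67 to 2.24. Mcm6, at 441 TPM, then lay above Mcm5, at 355 TPM. Mcm7 shares 3.89% of its exon bases with the microRNA genes Mir25 and Mir93 on the same strand, and fragments that overlap more than 1 gene were left uncounted.

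Mcm8, an MCM relative with a role in recombination and repair, was the lowest of the 52 at 26.1, 25.5, 26.0 and 25.5 TPM (25.8 ± 0.291). Mcm2 exceeded it by 2.54 ± 0.05, and its paralogue Mcm9, outside the 52, lay at 7.90 ± 0.202 TPM. The helicase family thus spanned from 7.90 to 553 TPM in the same libraries.

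Helicase activation uses CDC45, GINS and MCM10. Cdc45 was the highest of this group at 153, 152, 145 and 152 TPM (150.3 ± 3.36), with replicate 3 below the others. Gins3 was the lowest at 29.3, 30.6, 31.3 and 31.0 TPM (30.5 ± 0.856). The 4 GINS subunits, which form a complex with 1 copy of each, were uneven: Gins4 read 121, 106, 110.2 and 110.2 TPM (112 ± 6.55) and made up 48.1 ± 2.14% of their summed level. Gins1 lay at 42.4, 50.1, 43.6 and 45.4 TPM (45.4 ± 3.37) and Gins2 at 44.4 ± 1.33 TPM, with ranges that overlapped. Gins2 to Gins3 gave 0.54 ± 0.08. Mcm10, which helps the helicase start to unwind, lay at 66.9 ± 1.46 TPM and gave -1.17 ± 0.02 against Cdc45. The kinase pair followed at lower levels. Its activating subunit Dbf4 read 45.7, 45.3, 46.7 and 44.8 TPM (45.6 ± 0.798), and its catalytic subunit Cdc7 read 34.5, 40.4, 35.6 and 36.4 TPM (36.7 ± 2.57). Dbf4 was above Cdc7 in each library, by 0.31 ± 0.11. Dbf4 has 8728 bases of merged exon and 2402 bases in its principal transcript, and with the latter length it reached 114 TPM and the ratio 1.76.

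Primer synthesis falls to polymerase alpha and primase. By merged exon length, Pola2, the accessory subunit, was the highest at 160.45, 165, 160.3 and 164 TPM (162 ± 2.31), and Prim2, the large primase subunit, the lowest at 38.0, 37.2, 35.3 and 33.5 TPM (36.0 ± 2.03). Pola1, the catalytic subunit and the 1 gene on chromosome X (chrX:93304767-93632155, minus strand), read 50.2, 51.2, 48.8 and 48.1 TPM (49.6 ± 1.4). Replicates 1 and 2, which carried Xist, thus lay above replicates 3 and 4, with no overlap. Whether that goes with the sex-linked genes was not tested. The split is not particular to chromosome X: the autosomal Mcm3 and Pcna, among others, also read higher in replicates 1 and 2 than in 3 and 4. Others, such as Top1, did not. Pola2 exceeded Pola1 by 1.71 ± 0.04. Prim1, the catalytic primase subunit, lay at 86.0 ± 2.01 TPM and exceeded Prim2 by 1.26 ± 0.11. With principal lengths the order changed: Prim1 was the highest at 144 TPM, above Pola2 at 132 TPM, Pola1 the lowest at 56.2 TPM, below Prim2 at 74.3 TPM, and the ratio of highest to lowest went from 4.51 to 2.57.

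Polymerases delta and epsilon copy the lagging and the leading strand. Of the 3 delta subunits in the set, Pold2 was the highest at 159, 147, 149.7 and 156 TPM (153 ± 5.67). Pold3 was the lowest of them at 90.4, 91.6, 90.3 and 89.9 TPM (90.5 ± 0.719). The catalytic Pold1 lay between them at 108, 102, 98.3 and 107 TPM (104 ± 4.56). By the genes of the set, delta was the most even complex, with a ratio of 1.69 between highest and lowest, and Pold2 to Pold1 gave 0.56 ± 0.04. Pold4, a further delta subunit outside the set, lay at 88.9 ± 3.82 TPM, and its range overlapped with that of Pold3. In epsilon, Pole3, a small histone-fold subunit that also serves in chromatin remodelling, was the highest at 145, 153, 151 and 144 TPM (148 ± 4.34). The catalytic Pole was the lowest at 44.6, 43.2, 45.2 and 43.2 TPM (44.0 ± 1.03), and Pole2 lay at 57.8 ± 1.66 TPM. Pole4, a further epsilon subunit outside the set, lay between Pole2 and Pole3 at 88.4 ± 3.52 TPM. Pole3 exceeded Pole by 1.75 ± 0.05, and the ranges were far apart. With principal lengths Pole2, at 39.7 TPM, was the lowest epsilon gene of the set, below Pole at 47.1 TPM. Between the catalytic subunits, Pold1 exceeded Pole by 1.24 ± 0.08.

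The clamp PCNA (chr2:132249162-132253314, minus strand) encircles DNA and holds polymerases on it, and the RFC complex opens and loads it. Pcna read 574, 559, 546 and 529 TPM, and 10.1% of its 100-base exon windows also occur elsewhere in the annotated transcripts, most in the pseudogene Pcna-ps2, so part of its reads could have been left uncounted. Rfc3 was the lowest of the loader at 40.9, 41.0, 41.5 and 40.0 TPM (40.8 ± 0.614). Rfc1, the large subunit, was the highest loader gene at 118, 117, 116 and 115 TPM (117 ± 1.27), with Rfc4 at 110.5 ± 4.02, Rfc5 at 66.4 ± 1.37 and Rfc2 at 61.4 ± 1.75 TPM. With principal lengths Rfc3 reached 76.9 TPM, next to Rfc5 at 76.2 TPM, and Rfc2 was the lowest at 53.3 TPM. The clamp exceeded the large loader subunit by 2.24 ± 0.03. Rfc4 and Rfc1 came close, at -0.08 ± 0.04, and their ranges overlapped.

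Replication protein A coats single-stranded DNA at the fork as a trimer. Rpa1, its large subunit, was the highest at 196, 190.5, 188 and 179 TPM (188 ± 6.997) and Rpa3, its small subunit, the lowest at 94.8, 95.8, 91.2 and 91.0 TPM (93.2 ± 2.46). Rpa2 lay at 107 ± 2.00 TPM. Both smaller subunits were below Rpa1 in each library, Rpa2 by a log2 ratio of -0.81 ± 0.03 and Rpa3 by -1.01 ± 0.04. With principal lengths the ratio of Rpa1 to Rpa3 went from 2.02 to 1.31.

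Okazaki fragments are trimmed by the flap nuclease FEN1 and joined by ligase LIG1. Fen1 read 235, 234, 221 and 223 TPM (228 ± 7.47) and Lig1 read 176, 178, 173 and 174 TPM (175 ± 2.27). The ratio was 0.38 ± 0.03 with ranges apart, but -0.02 with principal lengths, where the direction was not the same in all libraries. Behind the fork, chromatin assembly factor 1 deposits histones. Its large subunit Chaf1a read 158, 167, 159 and 155 TPM (159.9 ± 5.15) and its partner Chaf1b read 31.9, 33.3, 32.9 and 33.4 TPM (32.9 ± 0.661). This pair had the widest gap after Mcm8 and Tipin, -2.28 ± 0.05, which narrowed to -0.90 with principal lengths.

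Fork protection involves the TIMELESS-TIPIN complex, which moves with the helicase, the checkpoint mediator claspin (Clspn) and WDHD1, which links the helicase to polymerase alpha. Tipin was the highest at 294, 306, 289 and 301 TPM (297 ± 7.43) and Timeless the lowest at 51.9, 52.4, 51.3 and 51.9 TPM (51.9 ± 0.436). Partners in 1 complex thus differed by 2.52 ± 0.03, and by 2.08 with principal lengths. Clspn lay at 67.6 ± 1.56 and Wdhd1 at 58.8 ± 2.24 TPM, a ratio of Wdhd1 to Clspn of -0.20 ± 0.04, which turned to 0.0385 with principal lengths. Top1, which relaxes supercoils ahead of the fork and also acts in transcription, read 125, 129, 134 and 129 TPM (129 ± 3.42). It was below Top2a, the S and M phase topoisomerase at 402 ± 5.31 TPM, by a log2 ratio of -1.64 ± 0.04. With principal lengths Top1 reached 240 TPM and the ratio narrowed to -0.99.

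**Figure D2:**
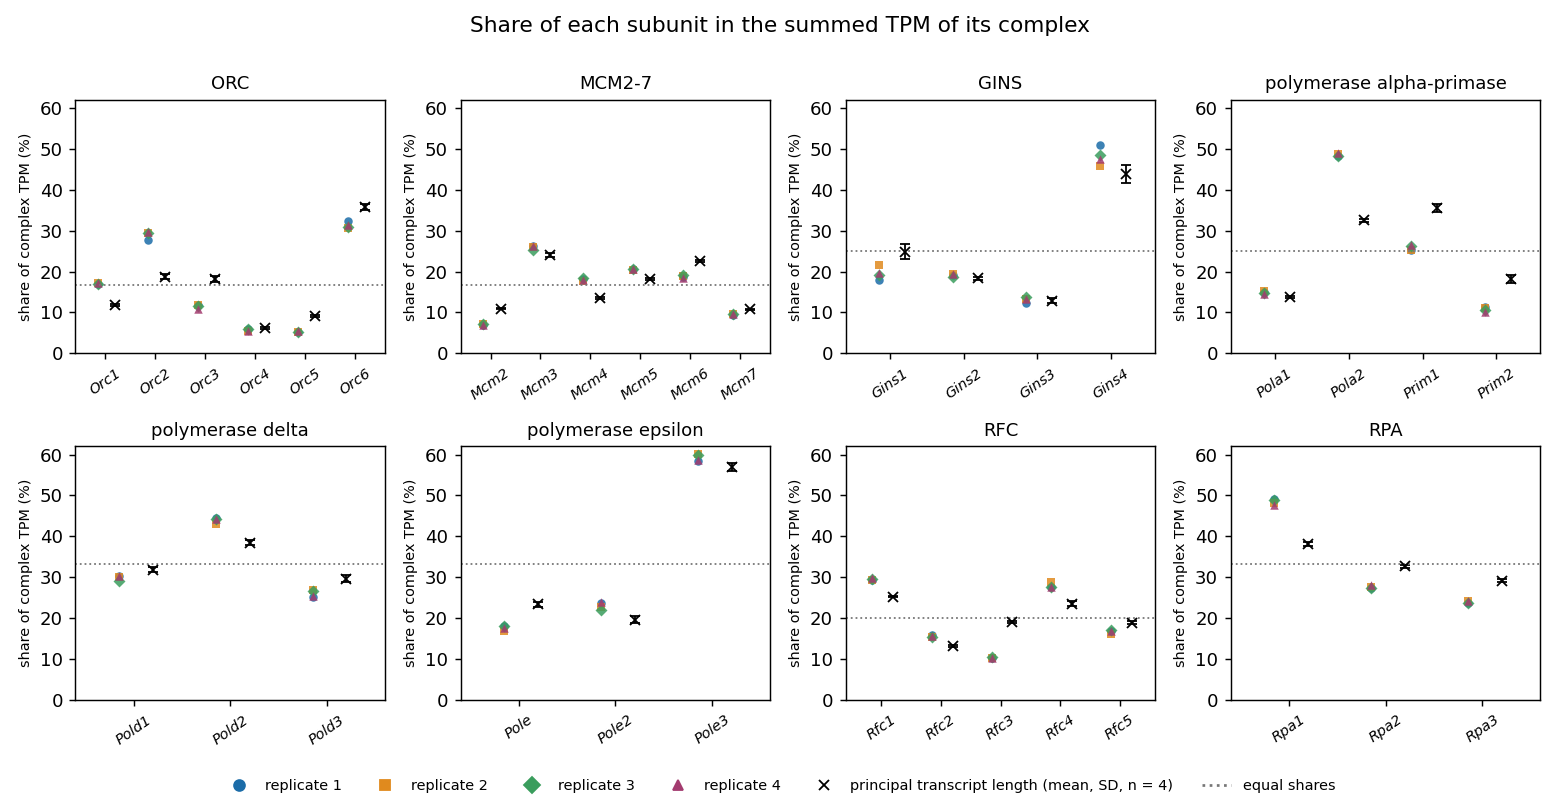
Share of each subunit in the summed TPM of its complex (%), for 8 complexes, with 1 coloured symbol per library, crosses with bars for the mean and SD over 4 libraries when the principal transcript length is used, and a dotted line at equal shares. Gins4 (48.1%) and Pole3 (59.3%) lie far above equal shares under both lengths, while the share of Pola2 (48.6%) drops to 32.5% with the principal length. Delta and epsilon are shown without Pold4 and Pole4, which are outside the set.

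Within complexes the ratio of the highest to the lowest subunit was 5.96 in ORC, 4.51 in polymerase alpha-primase, 3.67 in MCM2-7, 3.66 in GINS, 3.36 in epsilon, 2.86 in RFC, 2.02 in RPA and 1.69 in delta. Shares within a complex varied little between libraries. The SD of a share was at most 2.14 percentage points (Gins4), and in ORC and MCM2-7 it stayed under 1 percentage point. Orc6 held 31.4 ± 0.742% and Orc5 5.26 ± 0.0953% of the ORC sum. Pole3 alone held 59.3 ± 0.952% of the sum of the 3 epsilon genes in the set. Pold4 and Pole4, outside the set, do not enter the ratios and shares of delta and epsilon.

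These levels rest on the exon length by which each count is divided. The deposited length merges all exons of a gene, and 21 of the 52 genes have a merged length over 1.5 times that of their principal transcript in GENCODE M21. Using the principal length moved the median gene by -0.31 on the log2 scale. Relative to that shift, 12 genes moved up by over 1.5 times: Orc3, Orc4, Orc5, Orc6, Cdc6, Mcm2, Dbf4, Prim1, Prim2, Rfc3, Chaf1b and Top1. Pcna became the highest gene at 599.6 ± 20.2 TPM, above Mcm3 at 470 ± 12.9, and Mcm8 stayed the lowest at 20.7 TPM. Of the 25 pairs, 22 kept their direction of the mean ratio.

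**Figure D3:**
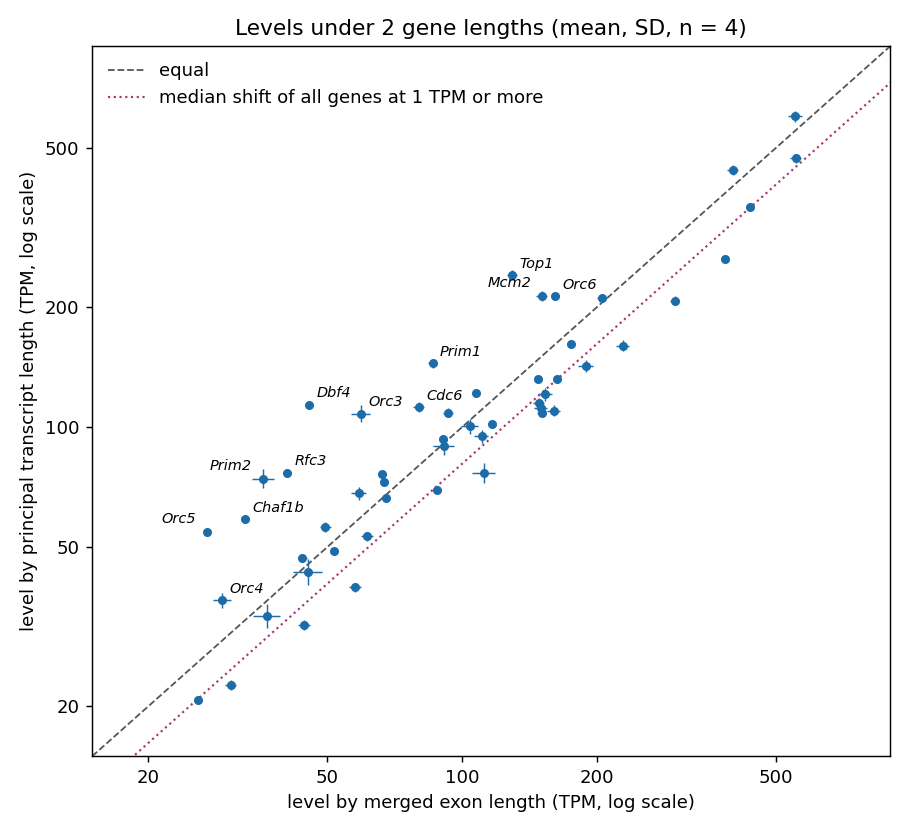
Mean level of each of the 52 genes in TPM by principal transcript length (vertical, log axis) against that by merged exon length (horizontal, log axis), with bars of 1 SD over 4 libraries, a dashed line of equality and a dotted line at the median shift of all genes at 1 TPM or more. The 12 labelled genes moved up by over 1.5 times relative to the dotted line.

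Differences between the 4 libraries were small for these genes. The coefficient of variation (CV) of TPM had a median of 2.72%, against 4.14% for detected protein-coding genes and 3.18% for the 5412 protein-coding genes in the same range of TPM. The CV that counting alone would give had a median of 1.47%, and 40 of the 52 genes exceeded it. Counts ran from 549 (Gins1 in replicate 1) to 34909 (Mcm3 in replicate 3). The most variable were Gins1 (CV 7.42%), Cdc7 (6.99%), Gins4 (5.86%), Prim2 (5.63%) and Cdt1 (5.38%), and the steadiest were Pold3 (0.794%), Timeless (0.841%), Rfc1 (1.09%), Mcm8 (1.13%) and Lig1 (1.29%). Pold3, Timeless, Rfc1 and Mcm8 varied less than their own counting CV. Gins1, Cdc7, Gins4, Prim2 and Cdt1 varied over 2 times as much as theirs. They were not alone in this: Mcm3 (2.82% against 0.640%) and Pcna (3.43% against 0.801%), among others, did too. On the log2 CPM scale, counts scaled to library size after edgeR's TMM scaling, the median SD was 0.037 for the 52 genes. It was 0.070 for all 12434 genes kept by edgeR's filter, and 0.047 for the 6789 of these in the same range of mean log2 CPM.

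**Figure D4:**
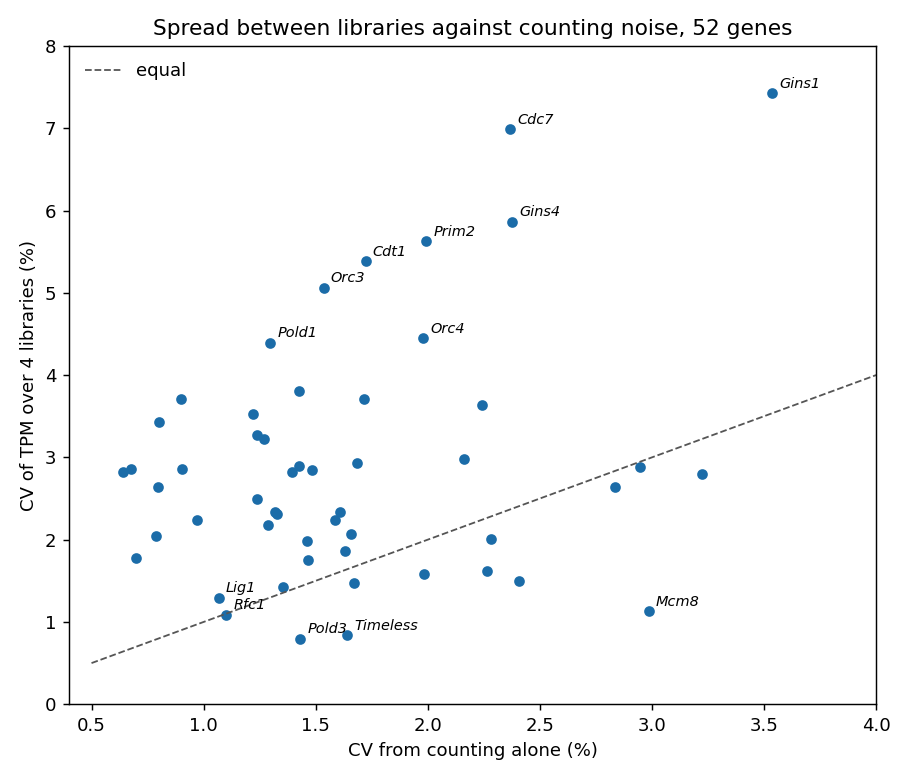
CV of TPM over the 4 libraries (%) against the CV expected from counting alone (%), 1 point per gene, with a dashed line where both are equal. Most points (40 of 52) lie above the line, with Gins1 at 7.42% the highest, and Pold3 and Mcm8 lie below it.

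Variable genes were those with a Benjamini-Hochberg adjusted p under 0.05 for the Poisson deviance over libraries and a ratio of 2 or more between their highest and lowest CPM. That held for 0 of the 52 genes, against 1.74% of the 12434 genes tested (216 genes). The Poisson test counts any spread beyond counting as variable, and on simulated counts with replicate spread and no changed gene it made calls too, many more without the ratio than with it, so neither share is a share of truly changed genes. Without the 2-fold condition the same test called 26 of 52, against 36.6% of all genes. These shares are not matched for level, and the Poisson test can call a smaller spread where counts are higher. The negative binomial deviance at edgeR's trended dispersion with no fold condition called 0 of 52 after Benjamini-Hochberg adjustment, against 0.523% of all genes. At an unadjusted p under 0.05 it also called 0 of 52, against 4.48%. The lowest unadjusted p by edgeR's negative binomial fit was 0.168, for Orc3 (adjusted p = 1.00). Orc3 read 60.8, 62.1, 59.8 and 55.2 TPM, with replicate 4 below the others.

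Small shifts ran across many of the 52 genes. Relative to each gene's own mean log2 CPM, 39 of 52 genes were above it in replicate 2 and 27 in replicate 1, but only 20 were in replicate 3 and 19 in replicate 4. Over all genes that share was 50.3 to 50.9% in each library. The median shift was 0.02 in replicate 2 and -0.01 in replicates 3 and 4, and it was at most 0.0015 in size over all genes. The farthest single genes were Gins1 (-0.11 in replicate 1 and 0.14 in replicate 2), Cdc7 (-0.10 and 0.14), Gins4 (0.10 and -0.08) and Orc3 (-0.10 in replicate 4). Gins1 and Gins4, of 1 complex, thus moved in opposite directions between replicates 1 and 2. Edger's negative binomial fit called neither gene variable over the libraries (unadjusted p = 0.229 and 0.542). The summed level of the 52 genes was 7081.5, 7093, 6903 and 6885 TPM (6991 ± 112), 0.699% of all TPM. Replicates 1 and 2 lay above replicates 3 and 4, and the same libraries differed in Xist and Eif2s3y and had the lower total counts. Among the markers of other cell types, Itgax (0.878, 0.977, 0.464 and 0.434 TPM) and Csf1r (0.839, 0.702, 0.492 and 0.285 TPM) were also higher in replicates 1 and 2. These 2, the only markers of that list with enough counts to be tested, were both called by the 2-fold Poisson test and by the negative binomial fit at an unadjusted p under 0.05, and 0 were by that fit after adjustment. The part of any of these in the difference was not tested. In TPM the highest library was replicate 1 for 20 genes, replicate 2 for 21, replicate 3 for 7 and replicate 4 for 4, and the lowest was replicate 4 for 23 genes and replicate 3 for 16.

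**Figure D5:**
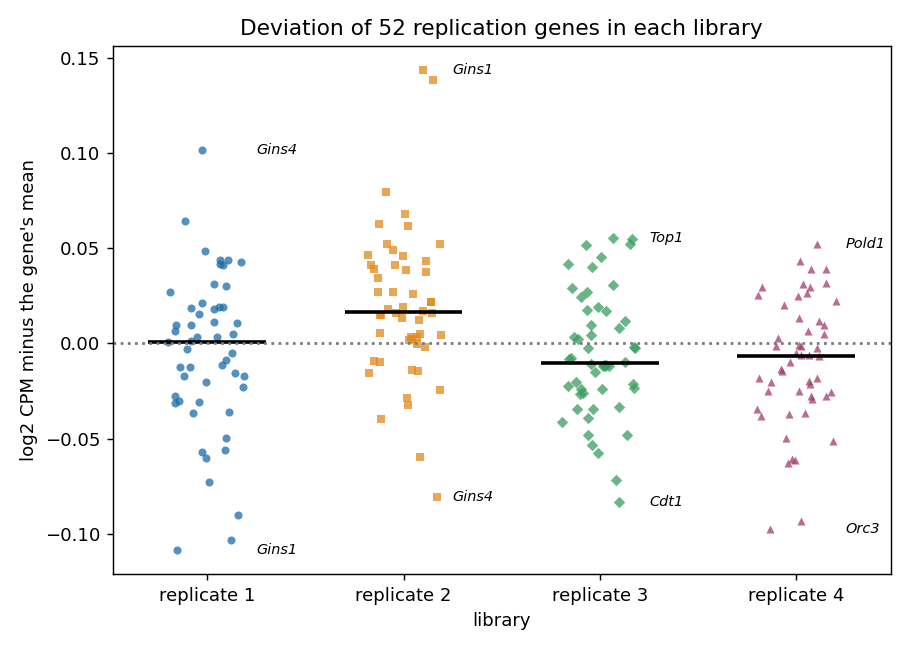
Deviation of each of the 52 genes from its own mean, in log2 CPM, by library. A bar marks the median of each library, and its highest and lowest gene are named. The median is highest in replicate 2 (0.02) and lowest in replicate 3 (-0.01), and the farthest gene deviates by 0.14.

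Other replication genes were read beside these. All 30 of a list of further initiation, fork and chromatin factors reached 1 TPM in each library, with a median of 48.6 TPM. The highest were Ssrp1 (619 ± 4.72 TPM) and Supt16 (289.8 ± 9.72 TPM), the subunits of the histone chaperone FACT, and Top2a (402 ± 5.31 TPM). The lowest were Dscc1 (6.66 ± 0.683 TPM), a subunit of an alternative clamp loader, Primpol (7.65 ± 0.131 TPM), which can restart stalled forks, and Mcm9. The 6 translesion polymerase genes, which copy past damaged bases, had a median of 31.0 TPM, close to that of detected protein-coding genes. Polh stood highest at 99.8 ± 5.31 TPM, followed by Polk (36.6 ± 0.646) and Mad2l2 (33.5 ± 1.53), and Poli (7.65 ± 0.543), Rev3l (15.8 ± 0.355) and Rev1 (28.5 ± 1.28) were the lowest. The 6 genes of mitochondrial DNA replication, a separate machinery, had a median of 37.1 TPM. There Polg led at 61.2 ± 2.47 TPM with Twnk (43.3 ± 1.11) and Top1mt (37.8 ± 4.28), and Polg2 (5.99 ± 0.439), Ssbp1 (17.4 ± 0.812) and Polrmt (36.5 ± 0.549) were the lowest. The 2-fold Poisson test called 0 genes in each of these 3 lists, and so did edgeR's negative binomial fit with no fold condition after adjustment. At an unadjusted p under 0.05 that fit called 1 gene, Top1mt, which read 34.4, 43.8, 35.2 and 37.6 TPM and was highest in replicate 2.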

How the data were processed

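The 52 genes and the lists were chosen with earlier results of these data known. The authors deposited raw fragment counts per gene and merged exon lengths, made per the file headers with featureCounts 1.4.6-p4 on paired, reverse-stranded reads (strand option 2), GENCODE M13 gene models and build mm10, per the labels. For alignment, no tool is given in the sources used here. Fragments mapping to more than 1 place or gene were not counted. Symbols came from GENCODE M21 by gene ID (50376 of 50600 genes).

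TPM was computed here from counts and lengths. Variation was measured with edgeR 4.0.16 in R 4.3.3 (TMM, default low-count filter, 12434 genes kept), with prior counts of 2 for log2 CPM and 0.5 for the ratio of highest to lowest. The deviance tests were checked on simulated counts with replicate spread: with no changed gene the Poisson tests still made calls, with and without the ratio, and the negative binomial tests made none. Pairs used TPM plus 0.1 and an exact sign-flip test. The CV expected from counting is computed from the counts of each gene and covers counting error only. No sample was left out or imputed.

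Values in each library are given for the highest and lowest gene of each role, and CVs for the 5 most and 5 least variable genes. Of other lists, the 3 highest and 3 lowest genes are named. Alternatives were DESeq2 1.42.0 size factors, other thresholds, pseudocounts and filters, CPM, principal transcript length and each replicate left out.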

Additional observations from a re-analysis of the deposited data

Results flagged for a closer look

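Of 66 groups of 4 values (52 genes and 14 sums over roles or over all genes), 3 had 1 library far from the other 3 by Dixon's test at 95%, and chance flags about 1 in 20 groups. Cdc45 was low in replicate 3, at 145 TPM, where the gap to the nearest library was 0.883 of the range. Gins2 was low in the same library, at 42.4 TPM, with a gap of 0.848 of its range. Orc6 was high in replicate 1, at 166 TPM, with a gap of 0.831 of its range.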

How the results depend on the processing

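All 52 genes stayed detected at 5 TPM, at 1 CPM and with any replicate left out, and the pairs kept one direction within their libraries in 25 of 25 cases with any replicate left out or a pseudocount of 1, in 24 with CPM and in 23 with principal transcript lengths (capped at the merged length, chosen after seeing the data). CPM, which is not divided by length, turned the mean log2 ratio of Cdc6/Cdt1 to 0.55, Fen1/Lig1 to -0.44, Gmnn/Cdt1 to -0.40, Mcm10/Cdc45 to 0.60, Pold2/Pold1 to -0.80 and Pole3/Pole to -0.70. Principal lengths turned Cdc6/Cdt1 to 0.33, Fen1/Lig1 to -0.0173 and Wdhd1/Clspn to 0.0385. Both alternatives change only the length. The ratio of highest to lowest subunit became 3.46 (CPM) and 5.77 (principal length) in ORC, 2.29 and 2.24 in MCM2-7, 2.18 and 2.57 in polymerase alpha-primase, 5.02 and 2.90 in epsilon, 4.76 and 1.91 in RFC and 9.93 and 1.31 in RPA, and it became 2.64 in GINS with CPM and 1.30 in delta with principal lengths.

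The summed level was 7169.7 TPM without mitochondrially encoded genes and 6826 TPM with principal lengths, and 6956.6 to 7025.9 TPM with each replicate left out. The median shift of replicate 1 was 0.0159 on TPM, against 0.000889 on log2 CPM. The count of variable genes, 216 of 12434, became 18 by the negative binomial test, 65 by that test with no fold condition, 85 with genes of chromosomes X, Y and M left out as well (both chosen after seeing the data), 1097 with no filter and so more genes tested, 4550 with no fold condition and 141 to 156 with each replicate left out, for which fewer libraries are tested. For the 52 genes it stayed 0 except for the 26 with no fold condition. Within 100 bases before the start, the E2F motif was found for 11.6% of the 43 genes with a promoter entry. With a 7-base form (chosen after seeing the data) it was found for 67.4%. These compare with 0.981% and 10.9% of all genes and 1.84% and 20.6% of the protein-coding genes detected here. Where not stated, the cause was not tested.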
